A study of Homo sapiens with 6 samples.

Results

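The SMAD family is the intracellular arm of TGFβ and BMP signaling. The deposited gene table holds 8 SMAD genes among 57773 genes, and all 8 were taken by gene name: SMAD1, SMAD2, SMAD3, SMAD4, SMAD5, SMAD6, SMAD7 and SMAD9. RNA came from HepG2, a hepatocellular carcinoma line, in 2 groups of 3 cultures each: 3 received recombinant human TGFB1 ligand at 5 ng/mL for 3 h (TGFβ), and 3 received the respective vehicle for 3 h. All cultures were grown as monolayers in MEM with serum. By the study's methods they were then washed and moved to MEM without serum before ligand or vehicle was added, so serum withdrawal is shared by both groups. The comparison asks which SMAD transcripts respond to the ligand; protein, phosphorylation and nuclear entry of the SMADs were not measured in these libraries, and 1 cell line at 1 time point stands behind every value.

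Ligand-bound type II and type I receptor kinases phosphorylate receptor SMADs at their carboxyl end. SMAD2 and SMAD3 carry TGFβ, activin and nodal signals, and SMAD1, SMAD5 and SMAD9 carry BMP signals. A receptor SMAD then joins SMAD4, the common partner of both branches, and the complex enters the nucleus and binds DNA, where SMAD3 and SMAD4 recognize the core element CAGAC. SMAD6 and SMAD7, the inhibitory SMADs, lack the site that receptors phosphorylate. SMAD7 blocks the TGFβ and BMP receptors and brings ubiquitin ligases to them, and SMAD6 acts mainly on the BMP branch. Transcription of inhibitory SMADs by the pathway they restrain is a textbook feedback loop.

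The start regions of the 4 SMAD genes that passed the test below are shown for orientation, since SMAD complexes bind such DNA. They were read from GRCh37 (the same build as hg19, used by the authors) at the MANE Select start in GENCODE, as the 150 bases that end 1 base before the start, 5′ to 3′ on the strand of the gene. Capitals mark any match to the core element (CAGAC or GTCTG, so both strands are covered), the palindromic SMAD element GTCTAGAC, the GC element GGCGCC, or the AP-1 element (TGACTCA or TGAGTCA). None of these 4 motifs contains another.
SMAD3 (chr15:67357790-67357939, plus strand): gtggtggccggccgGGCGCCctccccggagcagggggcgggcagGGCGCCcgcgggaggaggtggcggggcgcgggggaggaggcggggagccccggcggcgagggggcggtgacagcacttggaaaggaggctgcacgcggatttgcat
SMAD6 (chr15:66994424-66994573, plus strand): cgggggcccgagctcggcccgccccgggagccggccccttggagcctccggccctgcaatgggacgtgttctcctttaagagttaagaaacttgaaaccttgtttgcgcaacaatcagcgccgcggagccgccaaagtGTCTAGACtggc
SMAD7 (chr18:46477336-46477485, minus strand): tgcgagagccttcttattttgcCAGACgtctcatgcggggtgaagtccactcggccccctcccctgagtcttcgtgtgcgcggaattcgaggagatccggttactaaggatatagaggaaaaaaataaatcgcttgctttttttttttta
SMAD9 (chr13:37494376-37494525, minus strand): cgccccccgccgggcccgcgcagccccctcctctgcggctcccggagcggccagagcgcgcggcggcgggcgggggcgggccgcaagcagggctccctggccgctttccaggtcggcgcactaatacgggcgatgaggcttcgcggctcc
A further stretch holds the palindrome that lies farther upstream of SMAD7, with its first base 1260 bases before the start.
SMAD7 upstream (chr18:46478532-46478651, minus strand): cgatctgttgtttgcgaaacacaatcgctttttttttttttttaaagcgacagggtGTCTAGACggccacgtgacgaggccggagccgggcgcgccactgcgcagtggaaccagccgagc
By GENCODE v44lift37, none of the 5 stretches overlaps an exon, those of SMAD3 and SMAD9 lie inside introns of longer transcripts of the same gene, and those of SMAD6 and SMAD7 lie outside any gene. In the deposited table, whose annotation release is not given in the sources used here, SMAD6 starts at 66994566, so the last bases of its stretch lie inside the gene there. SMAD7, on the minus strand, begins at 46477081 there and at 46477335 by MANE Select. All distances given here count from the MANE Select start.

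Both inhibitory SMADs hold the palindrome GTCTAGAC in the 2000 bases before their start, and the other 6 members hold none there. In SMAD6 it ends 5 bases before the start, from 66994562 to 66994569 on chromosome 15, so that it reaches past that deposited gene start, and in SMAD7 it spans 46478588 to 46478595 on chromosome 18. Of 18536 genes of the table with a MANE Select start, 220 (1.19%) hold this palindrome within 2000 bases upstream and 14 (0.0755%) within 200 bases, as SMAD6 does. The shorter core element is common: 96.8% of these genes hold it within 2000 bases, as do 7 of the 8 members, with 4 copies each before SMAD7 and SMAD9 and 0 before SMAD2. Within 200 bases, 28.9% of all genes hold the core element, and SMAD7 is the 1 member that does, 128 bases before its start. The GC element was found within 2000 bases of 5 members and of 46.8% of all genes, and the AP-1 element at 3 members and 23.9% of all genes. A match is a description of the letters in the window and not a bound site, and alternative starts were left out of the search.

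**Figure D1:**
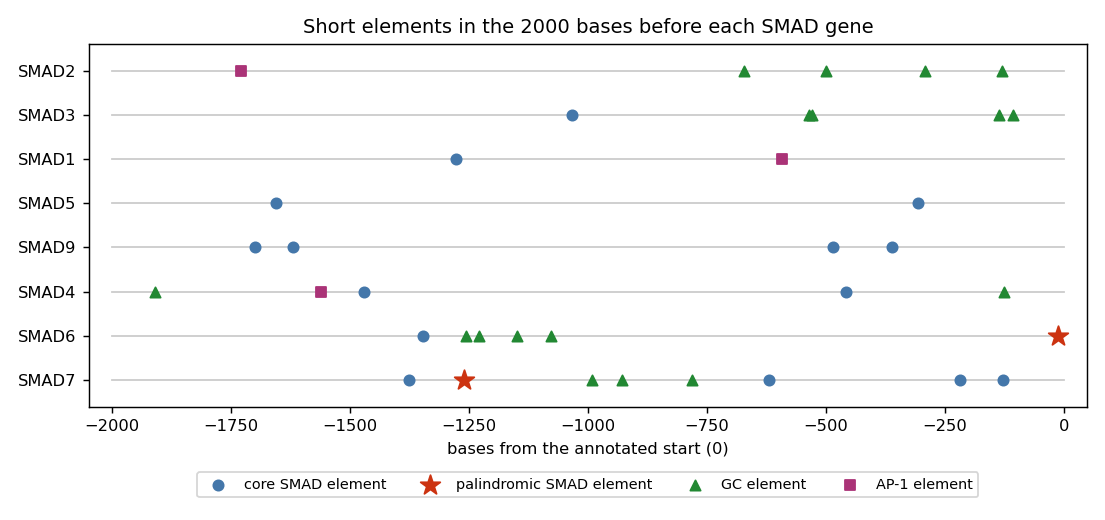
Positions of 4 short elements in the 2000 bases upstream of the annotated start of each SMAD gene, in bases from the start (0), with one line per gene. The palindromic SMAD element (stars) lies 12 bases before SMAD6 and 1260 bases before SMAD7 and is found at no other member.

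Each library held 60815385 to 100099136 reads on genes, and every SMAD gene was well above the counting limit, with between 326 reads (SMAD6, vehicle culture 3) and 13166 reads (SMAD3, TGFβ culture 1). The liver identity of the cells was checked with 8 hepatocyte genes, all of which had reads in every culture, ALB at 3405 to 4171 RPKM and HNF4A at 49.4 to 55.9 RPKM. Of 9 genes of other cell types, CD3E had 0 reads in all 6 cultures, PTPRC at most 1, and CD68 was the highest (13.4 to 14.5 RPKM). The summed level of these 9 genes was 15.0 to 15.5 RPKM in vehicle and 16.6 to 17.3 RPKM in TGFβ cultures. PDGFRB spanned 0.573 to 2.79 RPKM over the 6 cultures and COL1A1 0.462 to 1.02 RPKM. At a false discovery rate under 0.05, 0 markers of either kind were called in the main fit described below. At an unadjusted P under 0.05 in edgeR, 2 genes of other cell types were higher and 0 markers of either kind lower. Of 22747 tested genes, 3107 had such a P in either direction. With the culture number in that fit, 2 genes of other cell types were higher and 1 hepatocyte gene was lower. Of all tested genes, 8.08% were higher and 3.75% lower in that fit. The part of these genes in the SMAD results was not tested. In bulk RNA, fewer cells with a transcript and less of it per cell cannot be told apart.

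Of the 8 SMAD genes, 4 rose with TGFβ at a false discovery rate (FDR) under 0.05, and 0 fell by edgeR, by DESeq2, by limma-voom or at an unadjusted P under 0.05. They were the inhibitory SMAD7 and SMAD6, the TGFβ branch transducer SMAD3 and the BMP branch transducer SMAD9. SMAD5 and SMAD4 had smaller positive values that passed when the culture number entered the fit, and SMAD1 and SMAD2 had intervals that covered 0. The test was edgeR's quasi-likelihood test on raw counts with TMM scaling, with Benjamini-Hochberg adjustment over 22747 tested genes, of which 4.12% were called, 3.11% higher and 1.01% lower. The median log2 fold change was 0.53 over the 8 members and -0.0054 over all tested genes. Levels per culture are given below as CPM, counts per 1e+06 reads after this scaling. In 6 of the 8 members every TGFβ culture lay above every vehicle culture in CPM, though SMAD4, 1 of these 6, overlapped in the deposited RPKM. Of all tested genes, 18.6% had groups without overlap in CPM, 10.4% with TGFβ above and 8.23% with TGFβ below. For each of these 6 the exact permutation test (two-sided) gave P = 0.1, the smallest that 3 cultures against 3 allow.

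**Figure D2:**
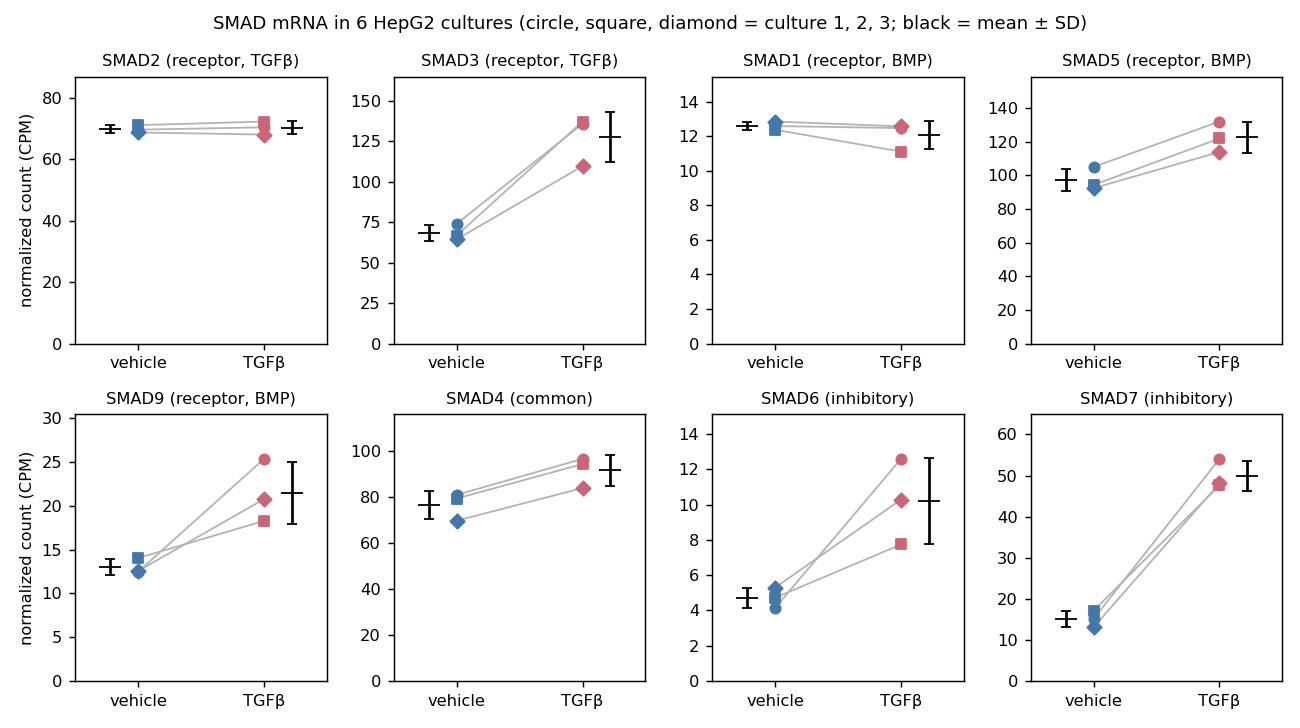
Normalized counts (CPM, linear axis from 0) of the 8 SMAD genes in the 3 vehicle and 3 TGFβ cultures, with lines joining cultures of the same number and black bars for the mean ± SD. SMAD7 lies between 13.1 and 17.1 CPM in vehicle and between 47.6 and 54.1 CPM with TGFβ, while the points of SMAD2 stay between 68.0 and 72.3 CPM in both groups.

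The inhibitory SMADs had the largest fold changes of the family. SMAD7 (ENSG00000101665, chromosome 18 from 46446223 to 46477081) had 15.1, 17.1 and 13.1 CPM in vehicle cultures 1 to 3 and 54.1, 47.6 and 48.1 CPM in TGFβ cultures 1 to 3. The lowest treated culture was far above the highest vehicle culture, and the 3 treated cultures lay close to each other. The fitted log2 value was 1.72 ± 0.11 (standard error, FDR 3.73e-05), or 3.30-fold with a 95% interval from 2.79 to 3.91. Within culture numbers 1, 2 and 3 the fold was 3.58, 2.78 and 3.68. By FDR SMAD7 stood at rank 9 of all tested genes, and by fold change at rank 95 of the rises.

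SMAD6 (ENSG00000137834, chromosome 15 from 66994566 to 67074338) was the least abundant SMAD transcript in vehicle. It had 4.13, 4.72 and 5.29 CPM in the vehicle cultures and 12.6, 7.74 and 10.3 CPM in the TGFβ cultures. All treated cultures were higher, but they were more spread than those of SMAD7, with culture 2 the lowest. On the log2 scale the rise was 1.12 ± 0.18 (standard error, FDR 0.0075), or 2.17-fold with a 95% interval from 1.63 to 2.88. Within culture numbers 1, 2 and 3 it was 3.05-fold, 1.64-fold and 1.94-fold.

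The ratio of SMAD7 to SMAD6 reads within a library does not depend on scaling. Its log2 value was 1.87, 1.86 and 1.30 in vehicle and 2.10, 2.62 and 2.22 in TGFβ cultures. The groups did not overlap, and the ratio was higher with TGFβ by 0.64 on the log2 scale (exact permutation test, two-sided, P = 0.1, also 0.1 after Benjamini-Hochberg adjustment over the 4 ratios tested). Within culture numbers the difference ranged from 0.23 to 0.92. All 3 pairs had the same direction, in a design that cannot reach a P of 0.05.

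The receptor SMADs of the TGFβ branch parted from each other. SMAD3 (ENSG00000166949, chromosome 15 from 67356101 to 67487533) had 74.0, 66.8 and 64.4 CPM in vehicle and 136, 137 and 110 CPM in TGFβ cultures. Every treated culture was higher, and culture 3 was the lowest of both groups. SMAD3 rose by 0.90 ± 0.10 on the log2 scale (standard error, FDR 0.000888), or 1.87-fold with a 95% interval from 1.60 to 2.18. Within culture numbers 1, 2 and 3 it was 1.84-fold, 2.06-fold and 1.70-fold.

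SMAD2 (ENSG00000175387, chromosome 18 from 45357922 to 45457515), which forms the same kind of complex with SMAD4 as SMAD3 does, had 69.6, 71.1 and 68.7 CPM in vehicle and 70.4, 72.3 and 68.0 CPM in TGFβ cultures. The groups overlapped over their whole range. The log2 fold change was 0.0086 (standard error 0.066, FDR 0.976), and the 95% interval of the fold ran from 0.908 to 1.12. The log2 ratio of SMAD2 to SMAD3 reads within a library was -0.089, 0.090 and 0.093 in vehicle and -0.95, -0.93 and -0.69 with TGFβ. It was lower with TGFβ by a mean difference of -0.89 and in all 3 pairs by at least 0.78 (exact permutation test, two-sided, P = 0.1). The pair thus went from about equal read counts to an excess of SMAD3 reads. Per length SMAD3 was ahead already in vehicle. The ratio of SMAD2 to SMAD3 in RPKM was 0.622, 0.705 and 0.706 in vehicle and 0.343, 0.348 and 0.410 with TGFβ.

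In the BMP branch, SMAD9 (ENSG00000120693, chromosome 13 from 37418968 to 37494902) had 12.5, 14.0 and 12.6 CPM in vehicle and 25.4, 18.3 and 20.8 CPM in TGFβ cultures. All treated cultures were higher, and culture 2 again showed the smallest difference. SMAD9 rose by 0.72 ± 0.13 on the log2 scale (standard error, FDR 0.010), or 1.65-fold with a 95% interval from 1.36 to 2.00. Within culture numbers 1, 2 and 3 it was 2.04-fold, 1.30-fold and 1.65-fold. Without vehicle culture 3 the FDR of SMAD9 was 0.060, with a log2 fold change of 0.70.

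SMAD5 (ENSG00000113658, chromosome 5 from 135468534 to 135524435), the most abundant BMP transducer here, had 105, 94.3 and 92.4 CPM in vehicle and 132, 122 and 114 CPM in TGFβ cultures. The lowest treated culture was above the highest vehicle culture, by a small margin. The fit gave 0.33 ± 0.083 on the log2 scale (standard error, FDR 0.0571), which missed the threshold. With the culture number as a block it was 0.33 ± 0.049 (FDR 0.000768), and its 3 pairs gave 1.26-fold, 1.29-fold and 1.23-fold. Background for the block fit is 11.8% of tested genes called, 8.08% higher and 3.75% lower.

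SMAD1 (ENSG00000170365, chromosome 4 from 146402346 to 146479231) had 12.6, 12.4 and 12.8 CPM in vehicle and 12.5, 11.1 and 12.6 CPM in TGFβ cultures. The groups overlapped, and the log2 fold change was -0.064 (standard error 0.097, FDR 0.865) with a 95% interval of the fold from 0.822 to 1.11. The log2 ratio of SMAD1 to SMAD5 reads lay between -3.06 and -2.85 in vehicle and between -3.46 and -3.18 with TGFβ. This ratio was lower with TGFβ by a mean difference of -0.40 (exact permutation test, two-sided, P = 0.1).

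SMAD4 (ENSG00000141646, chromosome 18 from 48494410 to 48611415), the common partner, had 80.8, 79.3 and 69.6 CPM in vehicle and 96.5, 94.3 and 83.8 CPM in TGFβ cultures. Culture 3 was the lowest in both groups, and its treated value was only just above the highest vehicle value. In the deposited RPKM the groups overlapped, with 4.86 in TGFβ culture 3 against 4.94 and 5.04 in vehicle cultures 1 and 2. The log2 fold change was 0.26 (standard error 0.086, FDR 0.178). The 3 pairs were almost equal, at 1.19-fold, 1.19-fold and 1.20-fold, and with the culture number as a block SMAD4 passed, at 0.26 ± 0.049 on the log2 scale (standard error, FDR 0.00461).

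**Figure D3:**
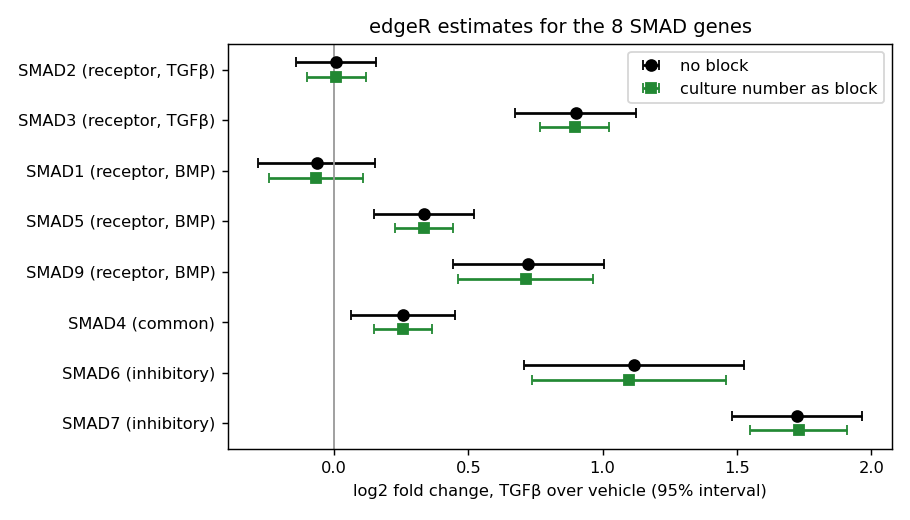
Fitted log2 fold changes of TGFβ over vehicle for the 8 SMAD genes with 95% intervals, without a block (black circles) and with the culture number as a block (green squares). The estimates hardly differ between the fits; the intervals of SMAD4 and SMAD5 are narrower with the block and both lie above 0.

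The levels of different SMAD genes were compared per length, with the deposited RPKM. In vehicle the order was SMAD5 (9.16 ± 0.592 RPKM, SD, n = 3), SMAD3 (6.21 ± 0.435), SMAD4 (4.74 ± 0.429), SMAD2 (4.19 ± 0.167), SMAD7 (3.39 ± 0.524), SMAD9 (1.88 ± 0.173), SMAD1 (1.72 ± 0.0207) and SMAD6 (1.06 ± 0.131). SMAD4 and SMAD2 were the only neighbours in this order whose vehicle values overlapped. With TGFβ the top was shared by SMAD3 (11.3 ± 1.73 RPKM), SMAD5 (11.3 ± 1.10) and SMAD7 (10.9 ± 0.914), whose values overlapped. SMAD4 (5.53 ± 0.577), SMAD2 (4.11 ± 0.266), SMAD9 (3.02 ± 0.508), SMAD6 (2.24 ± 0.523) and SMAD1 (1.60 ± 0.0749) followed, with overlap between SMAD9 and SMAD6. SMAD7 thus moved from place 5 to place 3, or from place 4 to place 3 per kilobase of its MANE Select transcript. The places of SMAD2 and SMAD1 also depend on the length used: the table gives SMAD2 13770 bases and SMAD1 6058, and their MANE Select transcripts have 34626 and 3002. Per kilobase of those transcripts SMAD2 came at place 7 in vehicle and last with TGFβ, and SMAD1 at place 5 in both, while SMAD5, SMAD3 and SMAD7 stayed among the leading 3 with TGFβ.

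The summed RPKM of the 8 genes was 33.2, 33.6 and 30.3 in vehicle and 54.3, 50.9 and 44.8 in TGFβ cultures. The inhibitory SMADs held 12.8%, 15.0% and 13.4% of this sum in vehicle and 27.0%, 24.5% and 27.4% with TGFβ, and the groups did not overlap. Per kilobase of the MANE Select transcripts this share was 12.1% ± 1.04 (SD, n = 3) in vehicle and 23.4% ± 1.45 with TGFβ. The share of SMAD4 was 14.6% ± 0.514 in vehicle and 11.1% ± 0.393 with TGFβ, and that of the BMP receptor SMADs 39.5% ± 0.835 and 31.8% ± 0.814. These are shares of a larger sum, and the mean amounts did not fall. SMAD4 had 4.74 ± 0.429 RPKM in vehicle and 5.53 ± 0.577 with TGFβ, and the BMP receptor SMADs 12.8 ± 0.590 and 15.9 ± 1.51. The share of SMAD2 with SMAD3 was 32.2% ± 0.523 in vehicle and 30.8% ± 2.02 with TGFβ, and its direction turned with the length used, to 26.5% ± 0.617 and 28.9% ± 2.08 per kilobase of the MANE Select transcripts. The ratio of SMAD7 to SMAD3, inhibitor to transducer, was 0.503, 0.632 and 0.501 in RPKM in vehicle and 0.982, 0.856 and 1.08 with TGFβ. On the log2 scale of reads it was higher by 0.84 (exact permutation test, two-sided, P = 0.1). These are amounts of RNA and not of protein.

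**Figure D4:**
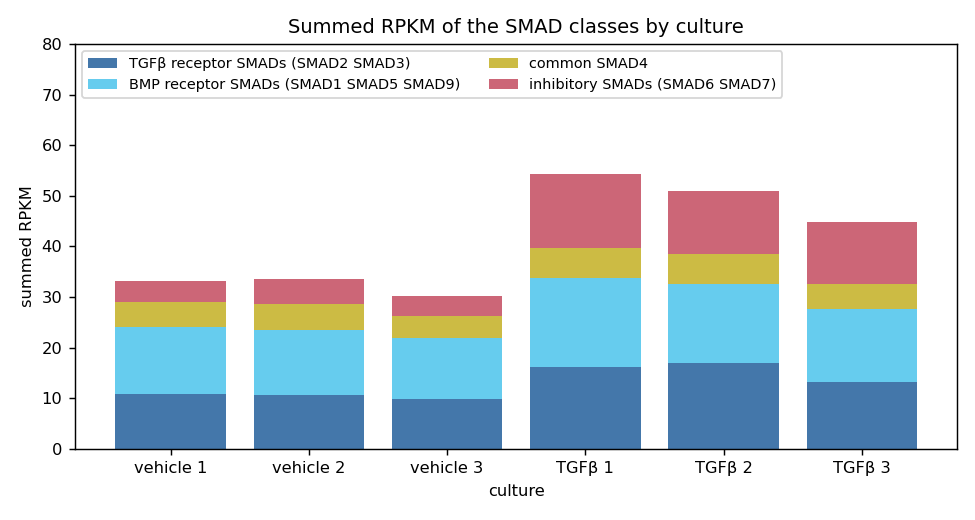
Summed RPKM of the SMAD classes in each culture, stacked from TGFβ receptor SMADs (bottom) through BMP receptor SMADs and SMAD4 to inhibitory SMADs (top). The total lies between 30.3 and 33.6 in vehicle and between 44.8 and 54.3 with TGFβ, and the top block grows from between 4.07 and 5.03 to between 12.3 and 14.7.

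Some members share their position with other genes of the table, and the use of strand in counting is not given in the sources used here. SMAD1 holds SMAD1-AS1, whose reads were up to 26.4% of those of SMAD1 (log2 fold change 0.11, FDR 0.864). SMAD4 overlaps ELAC1 and RP11-729L2.2, which reached 7.86% and 25.5% of its reads and had log2 fold changes of -0.16 and 0.21 (FDR 0.798 and 0.246). RP11-380M21.2 lies inside the SMAD2 interval, had between 5720 and 12459 reads and a log2 fold change of -0.27 (FDR 0.813). Its reads reached 251% of those of SMAD2, the largest such share of any member, and its part in the SMAD2 values was not tested. At SMAD3, SMAD5 and SMAD9 the overlapping genes reached at most 1.42% of the reads of the member, and SMAD6 and SMAD7 overlap no other gene of the table.

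Among the 15898 other tested genes with a mean of at least 1 CPM, those whose log2 CPM followed a SMAD gene most closely over the 6 cultures were listed as a description. For SMAD7 they were GATS (r = 0.998), HECA (r = 0.998) and KIAA0040 (r = 0.997). For SMAD3 they were FAM65A, AC091171.1 and PLCG1 (each r = 0.999), and for SMAD6 RP11-958N24.1 (r = 0.990), FERMT2 (r = 0.989) and RP11-10C24.1 (r = 0.989). A high r is not a change of like size. The log2 fold changes of the listed genes ran from 0.19 (PLCG1, FDR 0.184) to 1.55 (KIAA0040, FDR 0.000401). Those listed for SMAD6 all missed the threshold (FDR 0.0705 to 0.0879). Such correlations come from 6 points in 2 groups, and cultures 1 and 2 shared a sequencing lane with their partner while cultures 3 did not. Among the members, SMAD6 and SMAD9 ran closest together (r = 0.974), with SMAD3 and SMAD7 (r = 0.966) and SMAD3 and SMAD5 (r = 0.963) not far behind. SMAD6 and SMAD9 had their smallest rise in culture 2, as did SMAD7.

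The genes that act on or with SMAD proteins were described from 11 lists with 91 genes, of which 87 were tested. In the main fit 18 were higher and 3 lower, beside 3.11% and 1.01% of all tested genes. With the culture number as a block 27 were higher and 5 lower, beside 8.08% and 3.75% of all tested genes, and no gene of the lists lost its call; the genes gained are named with their list. The median log2 fold change over the 87 genes was 0.12. Among type I and II receptors, 3 of 10 tested genes rose and 1 fell. BMPR2, the BMP type II receptor, rose from 48.0 ± 2.70 CPM (SD, n = 3) to 136 ± 16.5 CPM in the treated group (log2 fold change 1.50, standard error 0.099, FDR 4.41e-05). ACVR1, a type I receptor upstream of SMAD1, SMAD5 and SMAD9, rose by 0.92 (standard error 0.096). TGFBR2, the type II receptor that binds TGFβ, fell from 349 ± 32.1 to 181 ± 17.7 CPM (log2 fold change -0.95, standard error 0.097, FDR 0.000543). TGFBR1, the type I receptor for SMAD2 and SMAD3, rose by 0.43 (standard error 0.067, FDR 0.00553); it is named because it completes the count. With the block, 4 receptors passed as higher and 2 as lower, the additions being BMPR1A, a BMP type I receptor (log2 fold change 0.24, FDR 0.330 without and 0.0128 with the block), and ACVR1B, an activin type I receptor (-0.27, FDR 0.0735 and 0.00807).

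Of the 11 ubiquitin ligases that act on SMADs or receptors, 2 rose and 1 fell. Beside this and the next counts stand 3.11% of all tested genes higher and 1.01% lower, and 8.08% and 3.75% with the block. SMURF2 and SMURF1, which SMAD7 carries to the receptors, rose by 0.64 and 0.53 on the log2 scale (FDR 0.00237 and 0.00734). NEDD4L, a ligase for phosphorylated SMAD2 and SMAD3, had a log2 fold change of -0.38 (FDR 0.0152). With the block 4 ligases passed as higher, with WWP1 (0.31, FDR 0.142 without and 0.00766 with the block) and TRIM33 (0.31, FDR 0.108 and 0.0127) added. Of 4 phosphatases 2 rose: CTDSP2, which acts on the SMAD linker, by 0.74 (FDR 0.00103), and PPM1A, which removes the receptor's phosphates from SMAD2 and SMAD3, by 0.40 (FDR 0.0114). Of the 10 anchors and adaptors 1 fell, DAB2 with a log2 fold change of -0.50 (FDR 0.00852), and 0 rose by edgeR (1 by DESeq2, 1 at an unadjusted P under 0.05, and 1 with the block, LEMD3, at 0.38 with an FDR of 0.0592 without and 0.000585 with it). The 6 deubiquitinases, 5 linker kinases and 8 nuclear transport genes held 0 calls by edgeR, by DESeq2, by limma-voom and at an unadjusted P under 0.05. Of all tested genes, edgeR called 4.12%, DESeq2 6.24% and limma-voom 3.92%, and 3107 of 22747 had an unadjusted P under 0.05 by edgeR. In lists this short, 0 calls is near the edgeR share. With the block 1 linker kinase passed, MAPK3 (0.23, FDR 0.501 without and 0.0119 with it). The log2 fold changes in these lists lay between -0.16 and 0.23. Without single cultures, NEDD4L lost the threshold without vehicle culture 2 (FDR 0.0658) or 3 (0.0560), DAB2 without vehicle culture 3 (0.0527), and PPM1A without vehicle culture 2 (0.0600) or 3 (0.0731) or TGFβ culture 1 (0.0652) or 2 (0.0575).

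Of 8 co-repressors 3 rose. The shares of all tested genes beside the counts here are again 3.11% higher and 1.01% lower, and 8.08% and 3.75% with the block. SKIL and SKI, which bind SMAD complexes on DNA and hold them inactive, had log2 fold changes of 2.45 and 1.24 (FDR 8.43e-06 and 9.92e-05), and TGIF1 of 0.87 (FDR 0.00402). With the block 4 passed as higher and 1 as lower, SIN3A (0.25, FDR 0.0838 without and 0.00703 with the block) and TGIF2 (-0.18, FDR 0.331 and 0.0334) being added. Of 11 tested co-activators and DNA-binding partners 1 rose, RUNX1 by 0.47 (FDR 0.0275), and TFE3 passed as well with the block (0.44, FDR 0.0514 without and 0.00150 with it). Genes that serve as readouts of SMAD2 and SMAD3 activity rose in 7 of 9 cases, with a list median of 0.87. Among them were PMEPA1 (4.30, FDR 4.41e-05), JUNB (3.66, FDR 6.29e-07) and SKIL. PMEPA1 was near the floor in vehicle (0.173 ± 0.0714 CPM, SD, n = 3), with as few as 8 reads in a culture. It was not tested under the filter of at least 10 counts in every library. CDKN2B was added with the block (0.43, FDR 0.264 without and 0.0232 with it). Of 7 tested readouts of BMP SMADs 2 rose, ATOH8 by 1.80 (FDR 0.0291) and HAMP, the liver hormone hepcidin, by 1.63 (FDR 0.0130), with a list median of 0.21, and ID4 was added with the block (1.17, FDR 0.0899 without and 0.0376 with it). ATOH8 passed only without TGFβ culture 3 among the fits that left out a culture (FDR 0.0556 to 0.131 in the others), and HAMP only without TGFβ culture 2 or 3 (0.0564 to 0.101 in the others), and both missed the threshold without a filter (0.192 and 0.256). ATOH8 also missed it with limma-voom (0.0517). RUNX1 missed it without vehicle culture 1 or 2 or TGFβ culture 1 or 2 (0.0574 to 0.126). SKIL and TGIF1 stand in 2 lists, and all lists were written with earlier results of these data known.

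**Figure D5:**
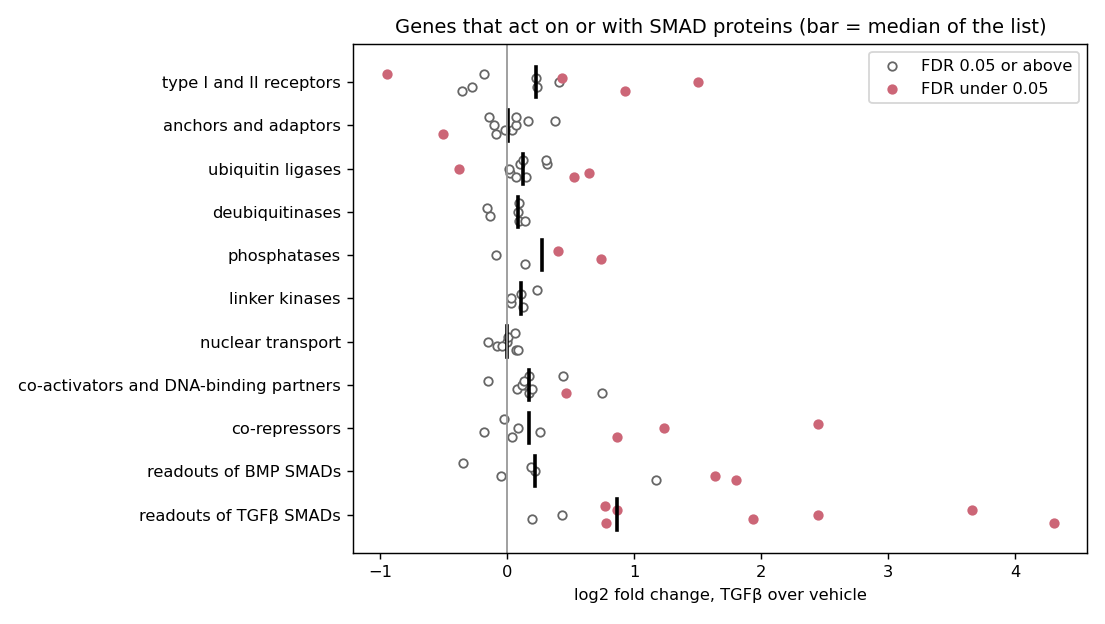
Log2 fold changes of TGFβ over vehicle for the tested genes of 11 lists of genes that act on or with SMADs, one point per gene, filled where the FDR is under 0.05, with a black bar at the median of each list. The readouts of TGFβ SMADs have the highest median (0.87). The short lists for deubiquitinases, linker kinases and nuclear transport hold no filled point, where 4.12% of all tested genes were called.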

How the data were processed

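RNA-seq of 3 vehicle and 3 TGFβ cultures was analysed, grouped by the sample labels. The authors prepared TruSeq v2 mRNA libraries, aligned paired reads to hg19 (TopHat2 2.0.6 per the submitters' processing notes, which also name HTSeq) and deposited raw counts per gene from MAPRseq, and beside them the RPKM, scaled by a length column of the table. The annotation release is not given in the sources used here. Counts were compared with edgeR 4.0.16 (TMM, filterByExpr, robust quasi-likelihood test without a block, Benjamini-Hochberg over 22747 genes; R 4.3.3); standard errors follow from the F statistic. Log2 CPM used a prior count of 2. Exact permutation tests cannot go below 0.1. The fit was tested on simulated data. Alternatives were DESeq2 1.42.0 and its size factors, total-count scaling, 2 filters, limma-voom (limma 3.58.1), the block, and leaving out each culture; MANE Select transcript lengths were added after the data were seen. Same-numbered cultures deviated together (correlation across genes 0.366, 0.227 and 0.316, at most 0.0101 for other numbers), and equal numbers were taken as pairs. Deviations were from the mean of each group of 3, so low values for other numbers partly follow from those for equal numbers. The part of shared lanes in these correlations was not tested. The fit without the block stayed the main one, and blocked values stand beside it for each member or pathway list gene whose call they change. For the cell type markers only the number of such calls is given. Cultures 1 and 2 shared a lane with their partner (lanes 1 and 3 per the labels), and cultures 3 did not (lanes 4 and 5). The study's methods call the sequenced samples biological replicates, and the labels do not say which cultures were grown or treated together.

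The members and gene lists were chosen with earlier results of these data known. Named genes are all members and, per list, up to 3 called genes with the largest change; list genes whose call changes with the block were named after their values were seen. Sequences were read from GRCh37 with pysam 0.24.0 at the MANE Select start in GENCODE v44lift37; all 8 members matched. PECAM1, of the marker list, was not analysed here.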

Additional observations from a re-analysis of the deposited data

How the results depend on the processing

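SMAD7, SMAD6 and SMAD3 passed the FDR threshold under all 13 alternatives, with log2 fold changes from 1.63 to 1.82, from 0.93 to 1.27 and from 0.83 to 0.99. SMAD9 passed under 12 of 13 and missed it without vehicle replicate 3 (log2 fold change 0.70, FDR 0.060; range with a culture left out 0.58 to 0.81). SMAD5 passed with the replicate block (0.33), without a filter (0.31), with at least 10 counts in every library (0.34), with DESeq2 (0.33), and without vehicle replicate 1 or TGFβ replicate 3 (leave-one-out range 0.27 to 0.38). SMAD4 passed with the replicate block alone (0.26). The sign of SMAD2 turned with total-count scaling (-0.033), without a filter (-0.014) and in 3 of the fits without 1 culture (range -0.023 to 0.024), always at an FDR of at least 0.885. Of the pathway list genes, 5 were lower with the replicate block and between 1 and 3 with single cultures left out, the 1 being without vehicle replicate 3. The number higher was 18 in the main fit, 27 with the block, 23 with DESeq2 and 17 with limma-voom. Of all 22747 tested genes, 707, 1837, 1012 and 679 were higher in the same order of fits. The number of list genes higher was 16, 13 and 13 without vehicle replicate 1, 2 or 3. It was 13, 14 and 21 without TGFβ replicate 1, 2 or 3. Beside these stand 617, 414, 394, 509, 439 and 778 genes higher of all tested (23180 to 23320 per fit). In the fits without 1 culture, between 91 and 220 of all tested genes were lower, and 853 of 22747 with the block. In either direction, the fits without 1 culture called between 2.09% and 4.28% of all tested genes. With the block, the pairing changed no other call of a member. Ranked per kilobase of MANE Select transcripts, 5 of 8 members kept their place in vehicle and 6 of 8 with TGFβ. Total-count scaling moved the median log2 fold change of all genes by -0.042, and the ratios between members do not depend on scaling. Groups of 3 limit every permutation test to 0.1; depth does not limit these members. The cause of these changes was not tested.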
